A study of Mus musculus with 13 samples.

Results

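The Kcn genes encode the subunits of potassium channels. All protein-coding gene entries of GENCODE vM1 on the mm9 mouse genome whose symbol starts with Kcn were taken, which gave 96 of 22367 entries, under 94 symbols because Kcnb2 and Kcnh8 each have 2 entries. They lie on 19 chromosomes, and 2 are on chromosome X. The promoter of a gene was taken as 1 kb on either side of its annotated start, and a promoter was counted for a list when at least 1 bp of a peak fell in it.

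The lists are 5 sets of ChIP-seq peaks from wild-type mouse embryonic stem cells (mESCs), an XY line on a 129/1 background grown in serum with LIF. AEBP2, an accessory subunit of the Polycomb repressive complex PRC2, was immunoprecipitated with a rabbit polyclonal antibody in replicates 1 and 2. H3K27me3, the histone mark that PRC2 places, was immunoprecipitated in replicates 1 and 2. FS2-AEBP2, an AEBP2 with an N-terminal Flag-StrepII tag, was immunoprecipitated once by a different protocol, from cells that carry the tagged protein next to their own, and has no replicate. The labels give the same 129/1 line for this sample, while the paper's methods name E14 mESCs and the plasmid pCAG for expression of the tagged protein. The labels name the antibody against the mark only by H3K27, and the mark is called H3K27me3 as in the paper. The lists hold 2877 and 6779 peaks for AEBP2, 2884 for FS2-AEBP2, and 14112 and 9275 for H3K27me3. Read numbers were not part of the lists, so the depth is unknown, and the number of peaks in a list depends on depth and threshold. Nothing in the labels says that replicates 1 and 2 came from separate cultures. As a check of the cell type, the starts of 40 Hox entries, known Polycomb targets, carried peaks of the lists in 38 to 40 cases, whereas of 7 genes active in mESCs (Pou5f1, Nanog, Sox2, Esrrb, Klf4, Zfp42, Tdgf1) only Klf4 carried any, 1 of FS2-AEBP2 and 1 of H3K27me3 replicate 1.

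Potassium channels let potassium leave or enter the cell and so set the resting potential and end the action potential. Voltage-gated alpha subunits open on depolarisation, inward rectifiers and tandem pore domain channels hold the resting potential, and auxiliary subunits tune the gating or the delivery of the pore-forming ones. In mESCs PRC2 occupies CpG islands, stretches rich in CG dinucleotides at gene starts, and the genes marked there by H3K27me3 include many regulators of development that are silent in these cells.

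The 200 bases before the start are shown for 5 members, with each CG in capitals, since the median number of CG in these bases was 12.5 at the 18 members with peaks of all 5 lists and 3 at the 26 with none. Kcna7 carried H3K27me3 without AEBP2, and Kcna10 carried no peak. Kcna2 and Kcnc1, with peaks of all 5 lists, and Kcnk5, which has a CpG-island-like region but no peak, were chosen after their values were seen. The bases are those of mm9, 5′ to 3′ on the strand of the gene.
Kcna2 (chr3:106904285-106904484, plus strand): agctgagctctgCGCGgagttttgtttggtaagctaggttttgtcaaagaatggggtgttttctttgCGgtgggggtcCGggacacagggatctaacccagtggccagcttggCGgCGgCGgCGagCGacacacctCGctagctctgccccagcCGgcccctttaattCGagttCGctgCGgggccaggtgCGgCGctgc
Kcnc1 (chr7:53651667-53651866, plus strand): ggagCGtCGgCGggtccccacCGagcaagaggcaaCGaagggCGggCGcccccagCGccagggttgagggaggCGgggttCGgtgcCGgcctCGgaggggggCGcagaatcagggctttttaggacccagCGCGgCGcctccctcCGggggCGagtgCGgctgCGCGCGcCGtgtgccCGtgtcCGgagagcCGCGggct
Kcna7 (chr7:52661130-52661329, plus strand): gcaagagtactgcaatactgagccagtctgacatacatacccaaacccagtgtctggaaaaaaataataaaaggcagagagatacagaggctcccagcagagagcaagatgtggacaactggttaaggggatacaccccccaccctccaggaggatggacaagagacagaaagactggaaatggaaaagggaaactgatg
Kcna10 (chr3:106985774-106985973, plus strand): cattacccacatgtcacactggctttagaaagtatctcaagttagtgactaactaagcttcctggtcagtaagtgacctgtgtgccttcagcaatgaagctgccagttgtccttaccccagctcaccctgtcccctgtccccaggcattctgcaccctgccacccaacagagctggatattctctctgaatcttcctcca
Kcnk5 (chr14:21001005-21001204, minus strand): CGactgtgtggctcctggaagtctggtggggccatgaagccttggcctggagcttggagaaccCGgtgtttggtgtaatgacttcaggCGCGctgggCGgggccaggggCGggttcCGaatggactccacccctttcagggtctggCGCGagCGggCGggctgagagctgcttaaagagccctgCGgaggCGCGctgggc
These stretches hold 16 CG in Kcna2, 27 in Kcnc1 and 14 in Kcnk5, and 0 in Kcna7 and Kcna10. The number for Kcna7 reflects the window shown, as its CpG-island-like region of 1440 bp begins 19 bases before the start and runs 1420 bases into the gene. Among the 15 members with H3K27me3 in both replicates and no AEBP2 peak at the start, Kcna7 was the exception. Their median was 11 CG, and 14 of them held at least 1. Over all 96 members the median was 8.50 CG, and 94.8% held at least 1. Over all protein-coding promoters the median was 7 and 90.4% held at least 1. Those with all 5 lists, with the mark but no AEBP2, and with no list had medians of 14, 9 and 4.

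To ask how many potassium channel genes are PRC2 targets in mESCs, the share of Kcn promoters with each peak was set beside that of all 22367 protein-coding promoters, which include the Kcn genes. H3K27me3 covered most of the family. A peak of the mark was present at 65 Kcn promoters in replicate 1 (67.7%, 95% Wilson interval 57.8 to 76.2) and at 64 in replicate 2 (66.7%, 56.8 to 75.3), against 17.0% and 17.7% of all promoters. In both replicates it was present at 60 (62.5%, 52.5 to 71.5), against 15.0%. AEBP2 was present at 25 Kcn promoters in replicate 1 (26.0%, 18.3 to 35.6) and at 46 in replicate 2 (47.9%, 38.2 to 57.8), against 9.08% and 22.3%. In both replicates AEBP2 was present at 23 (24.0%, 16.5 to 33.4), against 8.44%. The tagged protein was also found at 23 (24.0%), against 6.53%. All these intervals lie above the background share. They cover counting error over the genes only, the genes of a family are not replicates of a condition, and no test across the members was made.

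At 18 members all 5 lists had a peak (18.8%, 12.2 to 27.7), against 4.57% of all promoters, and 26 entries had none (27.1%, 19.2 to 36.7), against 68.5%. A further 15 had H3K27me3 in both replicates and no peak of any AEBP2 list (15.6%, 9.70 to 24.2), against 4.35%. No Kcn promoter had AEBP2 in both replicates and H3K27me3 in neither, which allows a share of up to 3.12%, against 2.40% of all promoters. Here and for other counts of 0 the limit is 3 counts divided by the number of promoters, which differs from the Wilson limit. The plot of peaks by gene shows the members by class, with peaks ranked by score inside their own list because the scale of the score is not stated.

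**Figure D1:**
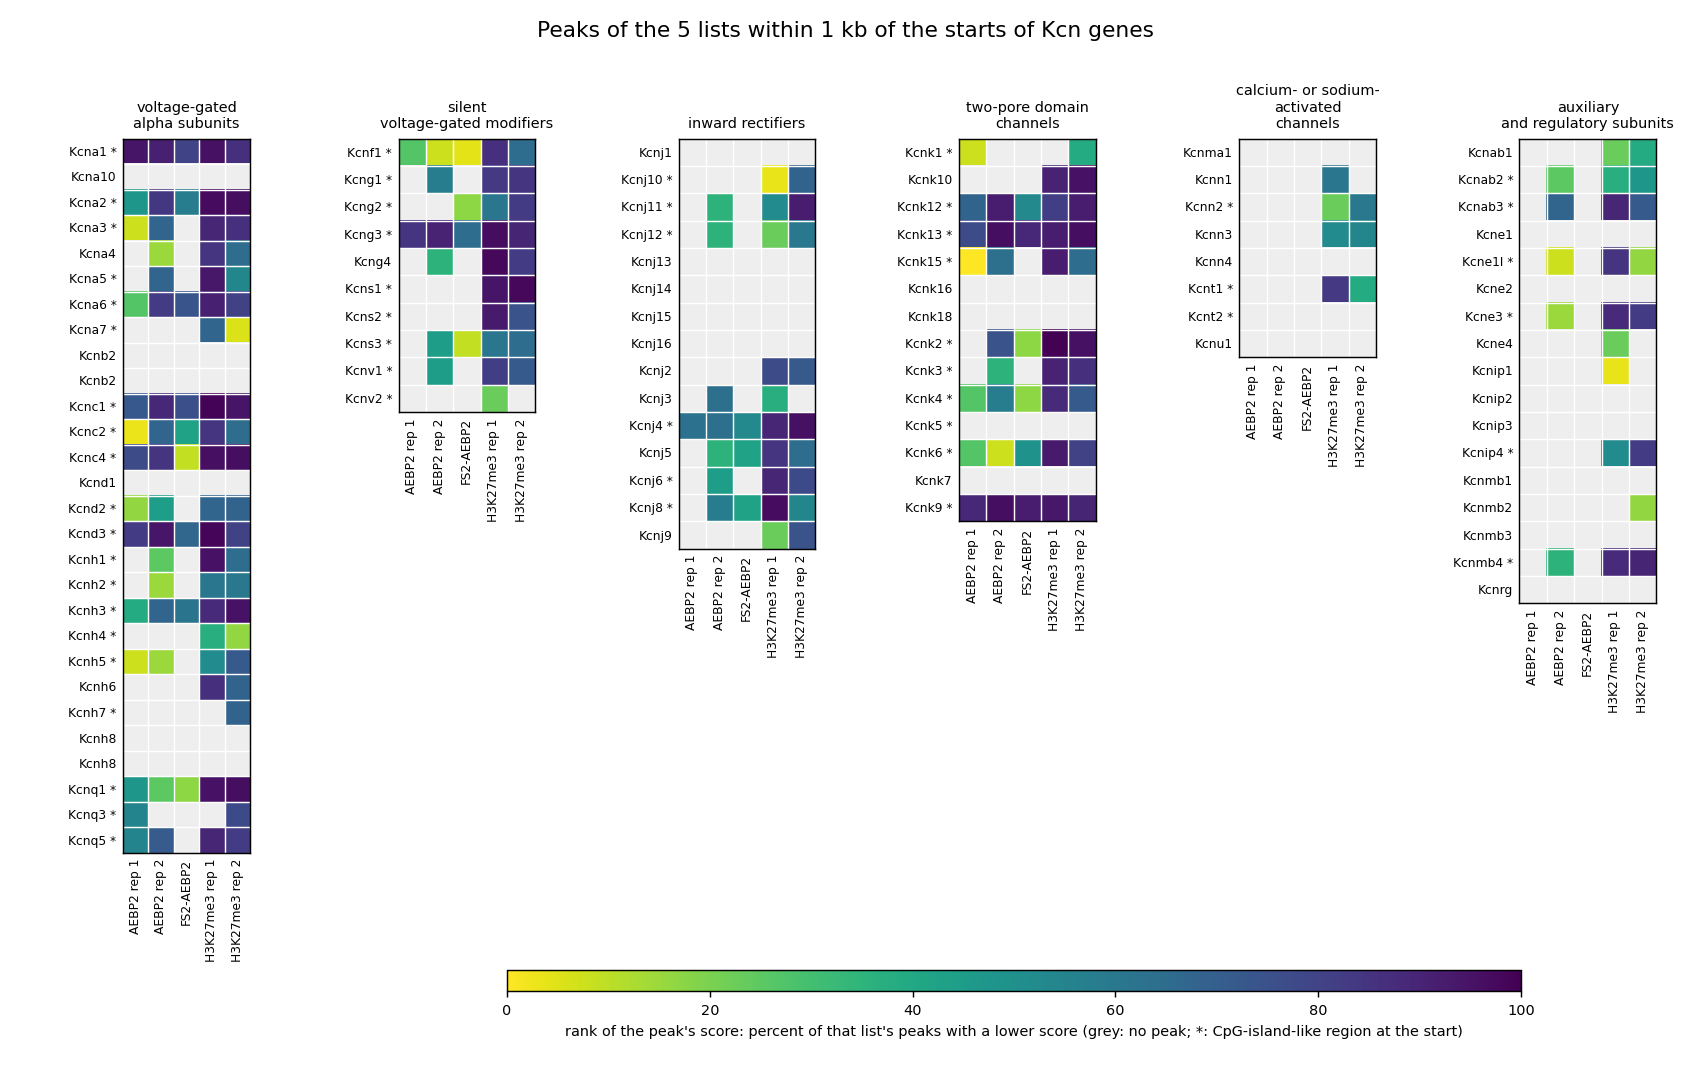
Each row is 1 of the Kcn gene entries reported by name and each column a peak list, grouped by channel class, with colour giving the percent of the list's peaks that have a lower score than the member's peak, grey for no peak within 1 kb of the start, and an asterisk for a CpG-island-like region. Most rows are filled in both H3K27me3 columns, and no auxiliary or calcium- or sodium-activated subunit is filled in the AEBP2 replicate 1 or FS2-AEBP2 column.

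The shares of AEBP2 followed those of the mark. Among the 60 Kcn promoters with H3K27me3 in both replicates, AEBP2 was present at 23 in replicate 1 (38.3%, 27.1 to 51.0) and at 44 in replicate 2 (73.3%, 61.0 to 82.9). The shares of all 3349 promoters with the mark were 40.9% and 68.3%. In both replicates AEBP2 was present at 23 of the 60 (38.3%), against 39.3% of all marked promoters, and FS2-AEBP2 at 23 (38.3%), against 38.2%. None of the 3 AEBP2 lists had a peak at 15 (95% interval 15.8 to 37.2%), against 29.1%. Each of these intervals includes the background share. At marked Kcn promoters AEBP2 was thus called at shares near those of all marked promoters, which include the Kcn genes. The intervals are wide, and no test of a difference was made.

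A CpG-island-like region, defined by 500 bp windows of 55% GC or more in which CG reaches 0.65 of the number predicted from base composition, overlapped 58 of the Kcn promoters. Of these 58, 51 had H3K27me3 in both replicates (87.9%, 77.1 to 94.0), against 23.4% of all promoters with such a region. AEBP2 was present in both replicates at 23 of them (39.7%, 28.1 to 52.5), against 14.9%, and FS2-AEBP2 at 22 (37.9%, 26.6 to 50.8), against 11.4%. The mark was missing in at least 1 replicate at 7 island promoters, which included Kcnh7, Kcnk1, Kcnk5, Kcnq3, Kcnt2 and Kcnv2. Of these 7, only Kcnk5 and Kcnt2 had no peak at all. Of the 38 Kcn promoters with no such region, 9 had H3K27me3 in both replicates (23.7%, 13.0 to 39.2), against 4.65%. These 9 were Kcna4, Kcnab1, Kcng4, Kcnh6, Kcnj2, Kcnj5, Kcnj9, Kcnk10 and Kcnn3. AEBP2 in both replicates was found at 0 of the 38, which allows up to 7.89%, against 0.497% of all promoters with no such region. AEBP2 in replicate 2 was present at 4 (10.5%, 4.17 to 24.1), Kcna4, Kcng4, Kcnj3 and Kcnj5, against 1.76%.

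**Figure D2:**
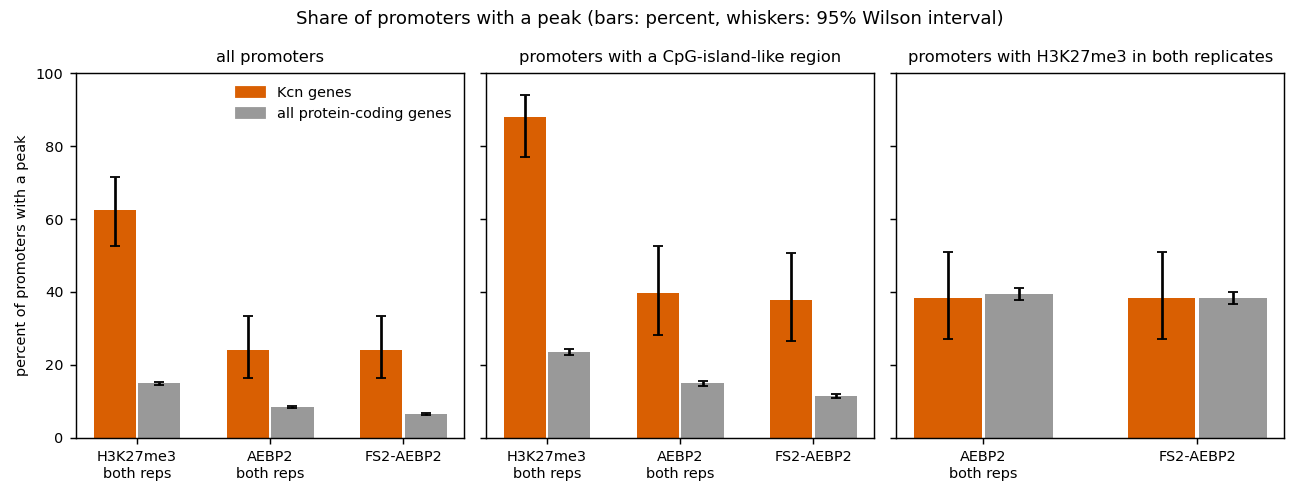
Bars give the percent of promoters with a peak for Kcn genes (orange) and all protein-coding genes (grey), with 95% Wilson intervals, over all promoters, those with a CpG-island-like region and those with H3K27me3 in both replicates. The Kcn bar for H3K27me3 stands at 62.5% against 15.0% in the first panel and at 87.9% against 23.4% in the second, while in the third the AEBP2 bars stand at 38.3% against 39.3%.

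The pore-forming voltage-gated alpha subunits, which shape the action potential, were the largest class. Of these 32 entries, H3K27me3 was present in both replicates at 23 (71.9%), against 15.0% of all promoters. AEBP2 was present in both replicates at 14 (43.8%, 28.2 to 60.7), against 8.44%, and in replicate 2 at 20 (62.5%), against 22.3%. FS2-AEBP2 was present at 10 (31.2%), against 6.53%. The class thus held 14 of the 23 Kcn promoters with AEBP2 in both replicates, but 20 of the 46 with AEBP2 in replicate 2 and 10 of the 23 with FS2-AEBP2. The Kcna genes, which encode Shaker-type delayed rectifier and A-type subunits, had the mark in both replicates at 7 of 8, with Kcna10 as the exception, and AEBP2 in both at 4. The Kcnc genes, which encode the fast Shaw-type subunits of rapidly firing neurons, had peaks of all 5 lists at Kcnc1, Kcnc2 and Kcnc4. The Kcnq genes, among them the subunits of the neuronal M-current, had the mark in both replicates at 4 of 5. All 5 lists had a peak at Kcnq1, the cardiac subunit. The Kcnd genes, which encode A-type Shal subunits, had H3K27me3 and AEBP2 in both replicates at Kcnd2 and Kcnd3 and no peak at Kcnd1. The Kcnh genes, the ether-a-go-go group, had the mark in both replicates at 6 of 9 entries and AEBP2 in both at Kcnh3 and Kcnh5. Neither Kcnb2 entry had any peak.

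The silent modifiers, Kcnf, Kcng, Kcns and Kcnv, form no channel alone and join Kcnb subunits. They had the mark in both replicates at 9 of 10 (90.0%), the exception being Kcnv2, which had replicate 1 only. AEBP2 was present in both replicates at 2, Kcnf1 and Kcng3, but in replicate 2 at 6 (60.0%), and FS2-AEBP2 at 4. Kcng2 was the 1 member with FS2-AEBP2 and no endogenous AEBP2 peak, and its tagged peak was 0.606 kb long and higher in score than 16.9% of the list.

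The tandem pore domain channels, Kcnk, carry background potassium current. The mark was present in both replicates at 9 of 14 (64.3%), against 15.0% of all promoters. AEBP2 in both replicates was present at 6 (42.9%, 21.4 to 67.4), against 8.44%. FS2-AEBP2 was also present at 6, against 6.53%. Kcnk4, Kcnk6, Kcnk9, Kcnk12 and Kcnk13 had all 5. The inward rectifiers, Kcnj, showed the mark in both replicates at 9 of 15 (60.0%). AEBP2 in both replicates was present only at Kcnj4 (6.67%), close to the 8.44% of all promoters. AEBP2 replicate 2 was present at 7 (46.7%), against 22.3%. Among marked promoters, AEBP2 in both replicates was found at 1 of 9 inward rectifiers (11.1%, 1.99 to 43.5), 6 of 9 tandem pore channels (66.7%, 35.4 to 87.9) and 14 of 23 voltage-gated alpha subunits (60.9%). This contrast rests on replicate 1. In replicate 2 alone the counts were 6 of 9 (66.7%, 35.4 to 87.9), 8 of 9 (88.9%) and 19 of 23 (82.6%), and FS2-AEBP2 was present at 3, 6 and 10 of the same promoters. The marked promoters of the first and last of these classes had H3K27me3 peaks of like median length, 8.49 and 8.33 kb in replicate 1 and 5.95 and 5.80 kb in replicate 2. Their CpG-island-like regions, counted as 0 where absent, had medians of 0.990 and 1.43 kb. The part of either length in the contrast was not tested. Where a CpG-island-like region overlapped the promoter, AEBP2 in both replicates was found at 1 of 6 inward rectifiers (16.7%) and 14 of 24 voltage-gated alpha subunits (58.3%), and in replicate 2 at 5 of 6 (83.3%) and 19 of 24 (79.2%). No test between classes was made, and the intervals are wide.

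The calcium- or sodium-activated channels had the mark in both replicates at 3 of 8 (37.5%), Kcnn2, Kcnn3 and Kcnt1, against 15.0% of all promoters. Their promoters had no AEBP2 peak in any list, which allows up to 37.5%, against 6.53 to 22.3% of all promoters over the 3 AEBP2 lists. Away from the promoter, AEBP2 replicate 2 had peaks inside Kcnn2 and Kcnn4, with nearer ends 290 and 7.03 kb from the start. FS2-AEBP2 had one inside Kcnn2, at 291 kb. The auxiliary and regulatory subunits had the mark in both replicates at 7 of 17 (41.2%), against the same 15.0%. These were Kcnab1, Kcnab2 and Kcnab3, cytoplasmic beta subunits, and Kcne1l and Kcne3, single-pass partners of Kcnq channels. The others were Kcnip4, a calcium-binding partner of Kcnd channels, and Kcnmb4, a beta subunit of the large-conductance calcium-activated channel. AEBP2 replicate 2 had a peak at 5 of these 7 (71.4%), against 68.3% of all marked promoters. In both replicates AEBP2 was found at 0 of 17, which allows up to 17.6%, against 8.44% of all promoters. All 23 promoters with AEBP2 in both replicates therefore belonged to the 79 entries outside the auxiliary class (29.1%, 20.3 to 39.9). The limit for the count of 0 in the auxiliary class lies above the share of all promoters, and no test was made.

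**Figure D3:**
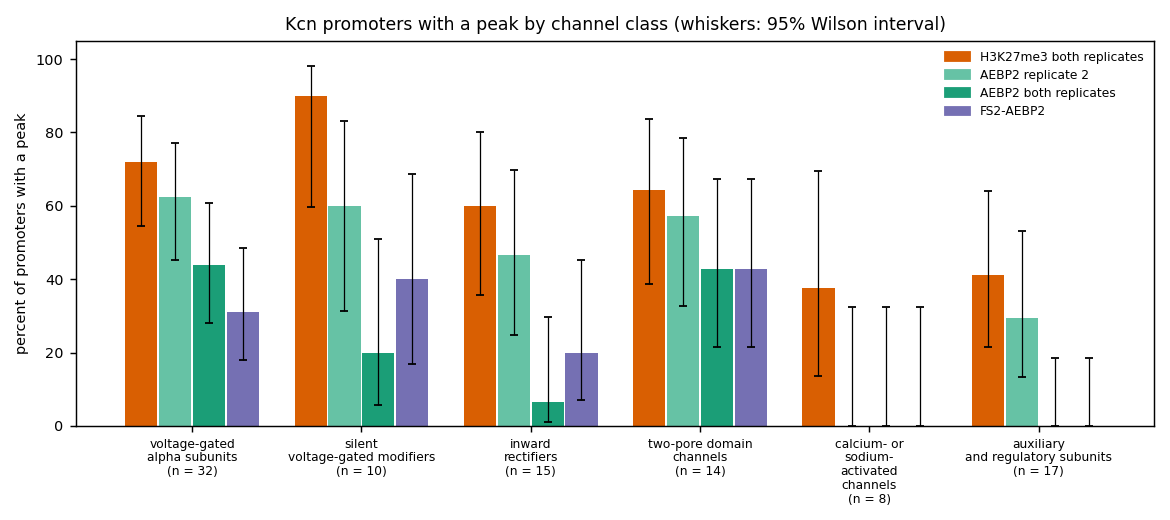
Bars give the percent of Kcn promoters of each channel class with H3K27me3 in both replicates, AEBP2 in replicate 2, AEBP2 in both replicates and FS2-AEBP2, with 95% Wilson intervals; the number of entries is under each class. AEBP2 in both replicates reaches 43.8% and 42.9% in the voltage-gated alpha and tandem pore (two-pore) classes, 6.67% in the inward rectifiers, and 0 in the activated and auxiliary classes.

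Other channel families were counted in the same way. H3K27me3 in both replicates was present at 15 of 26 Cacn promoters of voltage-gated calcium channels (57.7%, 38.9 to 74.5), 4 of 15 Scn promoters of voltage-gated sodium channels (26.7%, 10.9 to 52.0), 3 of 4 Hcn promoters of pacemaker channels and 1 of 9 Clcn promoters of chloride channels and transporters. Together these 54 had the mark at 23 (42.6%, 30.3 to 55.8) and AEBP2 in both replicates at 10 (18.5%), against 15.0% and 8.44% of all promoters. The interval for the mark overlaps that of the Kcn genes, and no test between the families was made.

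Named members with long H3K27me3 replicate 1 peaks are given with the length of every peak at their start. At Kcnq1 the lengths were 25.9 and 5.99 kb for the mark, 1.60 and 3.86 kb for AEBP2 and 0.426 kb for the tagged protein. The mark was called far longer there in replicate 1 than in replicate 2.

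Kcna1, a low-threshold axonal subunit, had H3K27me3 peaks of 19.5 and 12.4 kb, AEBP2 peaks of 4.20 and 4.54 kb and a tagged peak of 2.99 kb. Its neighbour Kcna6 had 12584 and 10997 bp of the mark, 1148 and 2672 bp of AEBP2 and 2448 bp of FS2-AEBP2. Kcna2 had 17.6 and 7.24 kb, 1.76 and 4.00 kb, and 1.58 kb in the same order. The 3 Kcna genes thus carried AEBP2 at every list, and in each the replicate 2 peak was the longer of the endogenous pair.

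Kcnj4, an inward rectifier of forebrain neurons, had the longest H3K27me3 peak in replicate 2, 16.8 kb, and 16.9 kb in replicate 1, with AEBP2 peaks of 1.10 and 3.35 kb and a tagged peak of 1.75 kb. Kcnd3 had 15.6 and 11.9 kb of the mark, 2.78 and 3.07 kb of AEBP2 and 2.68 kb of FS2-AEBP2. Kcnk9, an acid-sensitive background channel, had 12.2 and 7.47 kb of the mark, 3.79 and 4.42 kb of AEBP2 and 4.26 kb of FS2-AEBP2. These 3 genes come from different classes and had the lists in the same relation, with AEBP2 shorter than the mark.

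Kcnk10 and Kcnh6 had long H3K27me3 replicate 1 peaks and no AEBP2 peak at the start. The mark measured 12.2 and 9.36 kb at Kcnk10, a mechanically gated background channel, and 11.4 and 3.31 kb at Kcnh6. By the mean of both replicates, Kcnj10 (9326 bp) and Kcns1 (8389 bp), also without AEBP2 at the start, had longer marks than Kcnh6 (7360 bp). The highest score rank within each list belonged to Kcna1 for AEBP2 replicate 1 (94.3% of the list's peaks below it), to Kcnk9 and Kcnk13 for replicate 2 (96.2%), to Kcnk9 for FS2-AEBP2 (91.9%), to Kcnk2 for H3K27me3 replicate 1 (99.6%) and to Kcns1 for replicate 2 (97.7%). No member had the top-scoring peak of a list.

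Over the 18 members with peaks of all 5 lists, the AEBP2 peak ran from 778 to 4198 bp in replicate 1 (median 2050) and was at least 811 bp in replicate 2 (median 3576). The FS2-AEBP2 peak ran from 141 bp, at Kcnh3, to 4261 bp (median 1668). The H3K27me3 peak measured at least 2334 bp in replicate 1 (median 9180) and from 2933 to 16829 bp in replicate 2 (median 7148). The 1023 promoters of all genes with all 5 lists had medians of 2495, 3415, 2014, 9317 and 7933 bp in the same order, so Kcn peaks were of like length. In score the 18 members ranked high for the mark, with medians of 93.3% and 90.9% of the list below them. The 1023 promoters ranked alike, with 93.7% and 91.1%. For AEBP2 the 18 covered a wide range, from 2.75% at Kcnc2 to 94.3% in replicate 1 and from 4.13% at Kcnf1 to 91.9% for FS2-AEBP2. At Kcnf1 the peaks of all 3 AEBP2 lists began inside the gene, 662, 519 and 651 bp after the start, while the mark covered the start in both replicates.

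**Figure D4:**
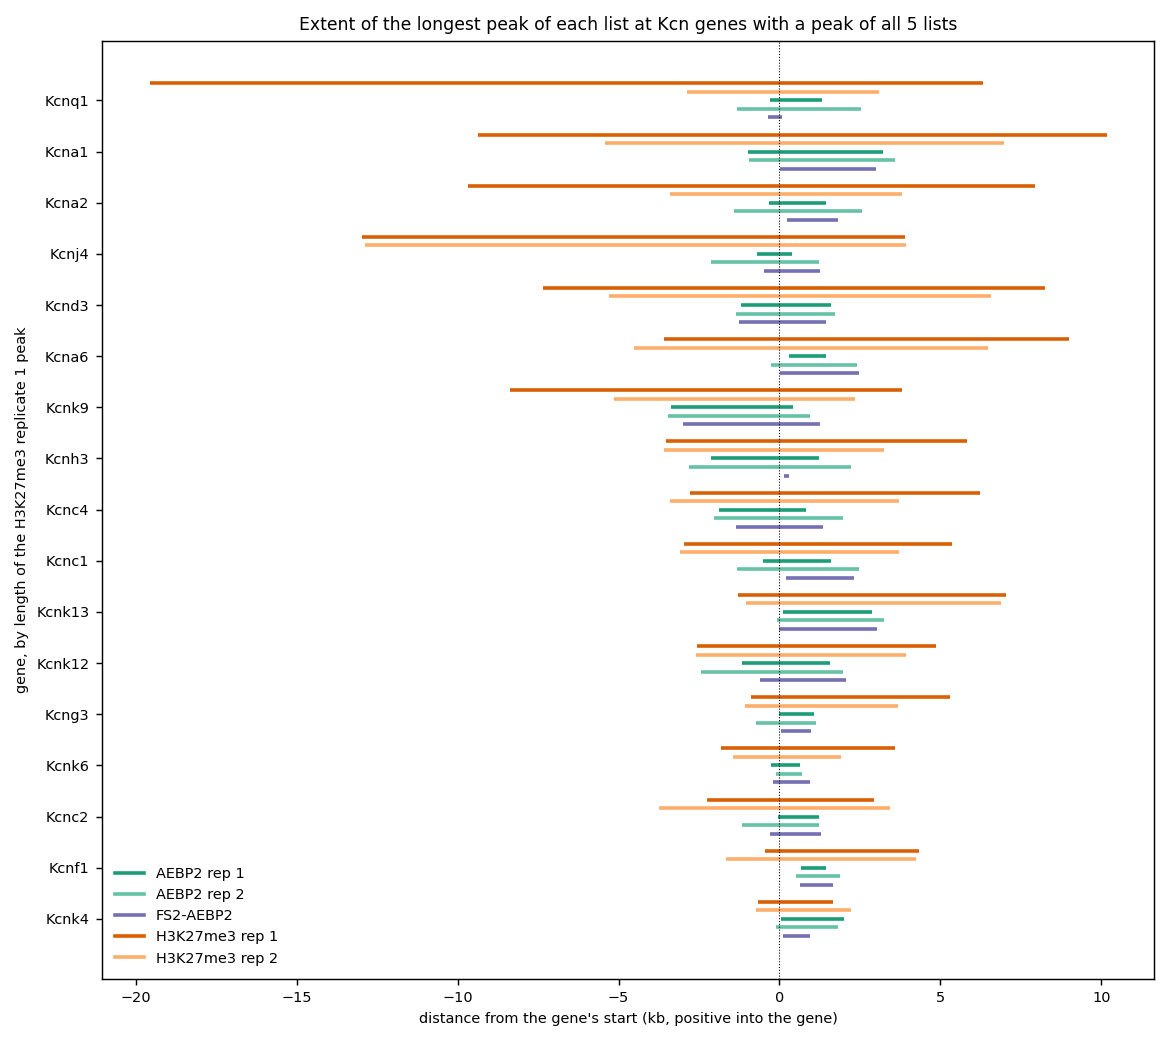
Horizontal lines show the longest peak of each list at 17 Kcn genes with all 5, by distance from the start in kb with positive values into the gene. AEBP2 and FS2-AEBP2 lines are shorter than both H3K27me3 lines at all 17 genes shown, and the Kcnq1 mark of replicate 1 runs 19.6 kb upstream of the start.

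Where both were present, AEBP2 lay inside the mark. The whole AEBP2 peak was inside an H3K27me3 peak of replicate 1 at 22 of 23 members for AEBP2 replicate 1, 40 of 45 for replicate 2 and 23 of 23 for FS2-AEBP2, against 87.7%, 78.0% and 92.3% of all promoters with both. The median AEBP2 peak measured 19.6%, 26.3% and 17.1% of the length of the mark's peak. Among the 18 members with all 5 lists, Kcnk4 alone had AEBP2 peaks that ran past the mark of replicate 1. The annotated start itself lay inside the H3K27me3 peak at 55 of 65 members in replicate 1 (84.6%) and at 50 of 64 in replicate 2 (78.1%), against 78.3% and 64.5% of all promoters with a peak. It lay inside the AEBP2 peak at 19 of 25 in replicate 1 (76.0%) and 37 of 46 in replicate 2 (80.4%), against 70.8% and 76.6%, and inside the FS2-AEBP2 peak at 12 of 23 (52.2%), against 49.7%.

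Longer marks went with AEBP2 in both replicates, at Kcn genes as at all marked genes. The 60 marked members were ordered by the mean length of the mark over both replicates. Of the 20 with the longest marks (7412 bp or more), 14 had AEBP2 in both replicates (70.0%, 48.1 to 85.5), of the middle 20 there were 6 (95% interval 14.5 to 51.9%) and of the 20 with the shortest (1245 to 4762 bp) there were 3 (15.0%). Over all marked promoters cut the same way, the shares were 73.0%, 34.6% and 10.3%. With AEBP2 replicate 2 on its own the order was not the same. It was present at 17, 17 and 10 of the 20 members from the longest to the shortest marks, against 89.5%, 72.3% and 43.2% of all marked promoters. In that list the longest and the middle Kcn marks thus had the same count. FS2-AEBP2 was present at 13, 7 and 3 of the 20 members in the same order, against 70.3%, 33.2% and 11.1% of all marked promoters. The median H3K27me3 length of replicate 1 was 9002 bp at the 23 members with AEBP2 in both replicates, and 5304 bp at the 15 with none of the AEBP2 lists. The same groups of all promoters had medians of 8310 and 3390 bp. CG dinucleotides moved with the same order, with medians of 110 and 67 in the 2001 bp of the promoter and 24.5 at the 26 entries with no peak. Over all promoters the order was the same, with medians of 114, 64 and 36. The part of CG dinucleotides in the result was not tested.

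**Figure D5:**
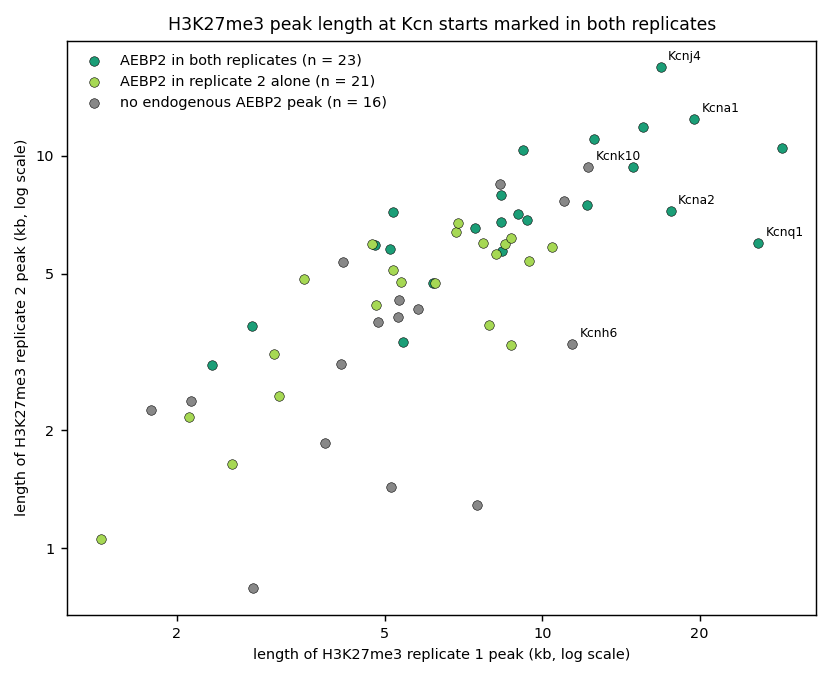
Each point is one of the 60 Kcn genes with H3K27me3 in both replicates, by the length of its peak in replicate 1 and replicate 2 (kb, log axes), coloured by endogenous AEBP2. The dark green points, with AEBP2 in both replicates, take most of the upper right. Of the marks without AEBP2 at the start, only Kcnk10 and Kcnh6, both long in replicate 1, are named.

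The replicates of the mark shared 60 members, 92.3% of the 65 in replicate 1 and 93.8% of the 64 in replicate 2, against 87.8% and 84.4% over all promoters. For AEBP2, 23 of the 25 members of replicate 1 were also called in replicate 2 (92.0%), but these were 50.0% of the 46 of replicate 2, which has the longer list. Over all promoters these shares were 92.9% and 37.9%. The tagged protein was called at 18 of the 23 members with AEBP2 in both replicates (78.3%, 58.1 to 90.3), against 55.9% of all such promoters, at 4 of the 25 with AEBP2 in 1 (16.0%), and at 1 of the 48 with none. All 23 also had H3K27me3 in both replicates, and among all 1316 promoters with AEBP2 and the mark in both replicates the tagged protein was called at 77.7%, which is close to the Kcn share.

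The members with the mark and none of the AEBP2 lists were spread over the classes. The 15 included Kcna7, Kcnh4 and Kcnh6 among the voltage-gated alpha subunits, Kcns1 and Kcns2 among the silent modifiers, Kcnj2, Kcnj9 and Kcnj10 among the inward rectifiers, Kcnk10, the activated channels Kcnn2, Kcnn3 and Kcnt1, and the auxiliary Kcnab1 and Kcnip4. At 4 of them, Kcnh4, Kcnk10, Kcns1 and Kcns2, an AEBP2 peak lay elsewhere in the same H3K27me3 peak (26.7%, against 12.7% of all such promoters). At Kcnk10 the peaks of AEBP2 replicate 1, replicate 2 and FS2-AEBP2 lay 2.38, 1.52 and 2.64 kb from the annotated start, at another coding start with a CpG-island-like region. At Kcns1 they lay 2.29, 2.14 and 2.03 kb away, at a CpG-island-like region with no other coding start. The other 11 had no AEBP2 peak in the same H3K27me3 peak. At Kcnj9, which is among these 11, AEBP2 replicate 2 and FS2-AEBP2 had peaks 2.69 and 2.82 kb from the start. These overlapped separate H3K27me3 peaks of both replicates at a CpG-island-like region.

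No peak was shared by the starts of 2 Kcn genes, even where they are neighbours. On chromosome 3, Kcna3 and Kcna2 start 65.4 kb apart and both had AEBP2 in both replicates, while Kcna10, 81.5 kb beyond Kcna2, had no peak. On chromosome 6, Kcna5, Kcna1 and Kcna6 start 110 and 94.9 kb apart and all 3 had H3K27me3 in both replicates, with AEBP2 in both at Kcna1 and Kcna6. Kcnj9 and Kcnj10, 11.9 kb apart on chromosome 1, both had the mark without AEBP2 at the start, although AEBP2 replicate 2 had a peak 2.69 kb into Kcnj9. Kcnj5 had the mark in both replicates, AEBP2 replicate 2 and FS2-AEBP2, and Kcnj1, 28.2 kb away on chromosome 9, had none. Another protein-coding start lay within 2 kb of only 2 members, Kcnab2 and Kcnu1, and of none of the 23 with AEBP2 in both replicates.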

How the data were processed

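Peaks were analysed for 5 of the 13 samples: both replicates of AEBP2 and of H3K27me3 and the FS2-AEBP2 sample, all wild-type. The SUZ12, input and Aebp2 mutant samples were not analysed here. The authors aligned the reads, called broad peaks per sample and deposited each peak with a whole-number score, whose scale is not stated. The submitters' processing notes name Bowtie, SAMtools, Picard, MACS2 2.0.10.2 and mm9, without settings. The score was used only as a rank within a list. No peak ran past an mm9 chromosome end. Depth is unknown, so no limit from read counts could be given.

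Starts came from GENCODE vM1 and sequence from NCBIM37, the assembly of mm9. Promoters were 1 kb either side of the start, CpG-island-like regions were 500 bp windows moved by 10 bp, and "both replicates" means that each list had a peak anywhere in the promoter. Shares have 95% Wilson intervals (scipy 1.17.1, Python 3.11.15, figures with matplotlib 3.10.9). Promoter calls were tested on simulated peaks. Groups came from the labels. The members, classes and gene lists were chosen with earlier results of these data known. Genes were named if they had all 5 lists, H3K27me3 without AEBP2, AEBP2 without H3K27me3, FS2-AEBP2 without AEBP2, the longest or top-ranked peak, or a shared peak; of these, the 10 with the longest H3K27me3 replicate 1 peak were to be given in full. Of the members, 4 enter all counts but are not reported here by name. The replicate number of each H3K27me3 list was taken from its sample record, but the list's own name appears to give the other number, so the 1 and 2 of this mark may be exchanged. Window width, overlap, score, start choice, replicate rule and CpG windows were varied.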

Additional observations from a re-analysis of the deposited data

How the results depend on the processing

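The 5 shares were recomputed under 49 combinations of share and alternative, of which 38 stayed inside the 95% interval of the reported value. Counting 1 entry per symbol was added after the data were seen and moved no share outside it. In all 37 combinations of the shares other than AEBP2 among marked promoters, the Kcn share stayed above that of all promoters under the same setting. AEBP2 among marked Kcn promoters lay above the share of all marked promoters under some settings and below it under others. Restricting each list to the upper part of its scores, from the median up, lowered H3K27me3 in both replicates to 51.0%, AEBP2 in both replicates to 12.5%, FS2-AEBP2 to 13.5%, AEBP2 among marked promoters to 24.5% and H3K27me3 among island promoters to 72.4%. The same shares over all genes were 11.6%, 4.73%, 3.94%, 28.6% and 18.9%. Counting a peak in either replicate gave 71.9% for H3K27me3, 50.0% for AEBP2, 68.1% for AEBP2 among marked promoters and 94.8% for H3K27me3 among island promoters. Over all genes these were 19.8%, 22.9%, 57.8% and 28.6%. Leaving out 1 AEBP2 replicate gave AEBP2 at 26.0 to 47.9% of Kcn promoters and at 38.3 to 73.3% of marked ones, the higher values being those without replicate 1, and leaving out 1 H3K27me3 replicate gave the mark at 66.7 to 67.7% of promoters and 89.7 to 93.1% of island promoters, and AEBP2 at 35.4 to 35.9% of marked promoters. No paired analysis was possible because the results come from no test. Depth is unknown, and a promoter with no peak is not shown to lack the protein or the mark.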

Other observations

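Peaks inside Kcn genes but away from the promoter were also present. Such a peak was found in 7 (7.29%) and 16 (16.7%) of the 96 entries for AEBP2 replicates 1 and 2, 13 (13.5%) for FS2-AEBP2, and 35 (36.5%) and 20 (20.8%) for H3K27me3, against 2.37%, 5.48%, 560 of 22367 entries, 9.80% and 7.34% of all protein-coding genes in the same order. Kcn genes are longer, with a median length of 27.5 kb against 15.4 kb, and the part of length in this was not tested. Kcnip3, a calcium-binding channel partner with no promoter peak, had peaks of all 5 lists whose nearer ends lay 34.6 to 37.6 kb from its annotated start. Those of AEBP2 and H3K27me3 lay within 1 kb of another coding start. Kcnk12 had peaks of all 5 lists whose nearer ends lay 49.3 to 51.0 kb from the start, and at Kcnk3 these ends lay at 32.5 to 33.8 kb. These peaks overlapped a CpG-island-like region and an exon, and none lay within 1 kb of another coding start. Kcnma1, the pore of the large-conductance calcium-activated channel, had no promoter peak but 6 and 3 H3K27me3 peaks inside the gene in replicates 1 and 2. Of these, 1 from each replicate measured 5744 and 8656 bp, with nearer ends 240 and 231 kb into the gene. The peaks of this pair did not overlap. Kcnq1, with peaks of all 5 lists at its start, also had 10 and 30 H3K27me3 peaks away from the promoter in replicates 1 and 2. Of these, 1 from each replicate measured 162098 and 48935 bp and ran past the end of the gene. Both were longer than the marks at its start.

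Kcnk1 and Kcnq3 were the members with AEBP2 in replicate 1 alone, and both had H3K27me3 in replicate 2 alone. Of the 144 protein-coding promoters with AEBP2 in replicate 1 alone, 12 had H3K27me3 in replicate 2 alone, 1 had it in replicate 1 alone, 53 had it in both and 78 in neither. Whether this comes with the uncertain replicate numbers of the H3K27me3 lists was not tested.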
